A study of Homo sapiens with 45 samples.

Results

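The expression of 7 genes stood far higher in 3 of the 45 libraries of this RNAseq series than in any of the others, namely LPAR6, FOXJ1, PIPOX, GALR2, COLGALT2, FAM222A and MCPH1-AS1. The 3 libraries are numbers 16, 44 and 19, which lie side by side in the deposited file and hold the 3 lowest values of POLR2D. The 7 genes were chosen by their deposited log2 values, because the lowest value of each in these 3 libraries lies at least 2 on the log2 scale above its highest value in the other 42. Of the 15698 genes in the file, 32 meet that margin (0.204%), and the 7 described here are among them. The margin alone does not set these 7 apart from the other 25, and they are not the 7 that lie furthest past it. They were picked with earlier results of these data known. The values that chose them are given below as a description, with no test.

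HCT116-VR, the source of the RNA, is a vorinostat-resistant line made by growing HCT116 colorectal carcinoma cells in rising amounts of the histone deacetylase inhibitor vorinostat. The cells were harvested 48 h after reverse transfection with 1 of 14 siRNA pools at 40 nM or with lipid alone (mock), in 3 independent experiments. The siRNAs were siBEGAIN, siCCNK, siCDK10, siDPPA5, siEIF3L, siGLI1, siJAK2, siNFYA, siPOLR2D, siPSMD13, siRGS18, siSAP130, siTGM5 and siTOX4. All libraries, mock included, come from the 1 resistant line and the same lipid protocol, and each siRNA is a pool against 1 gene.

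The columns of the file carry library numbers, which the sample list of the study's supplement pairs with sample names, and the siRNA targets go against that list. By the list, library 16 is mock replicate 2, library 44 is siPOLR2D replicate 3 and library 19 is siCDK10 replicate 2. POLR2D had 102, 87 and 147 reads in these libraries. The other libraries listed as siPOLR2D, numbers 10 and 26, had 818 and 783 POLR2D reads, inside the range of the other 42 (629 to 1729). No condition is therefore attached to any library here. The 45 columns are described as 15 sets of 3 adjacent columns in file order, of which libraries 16, 44 and 19 are set 10, and whether the 3 libraries of a set are independent experiments cannot be read from the numbers.

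As background, RNA polymerase II makes all messenger RNAs and most long non-coding RNAs. POLR2D encodes its RPB4 subunit, which pairs with RPB7, encoded by POLR2G, in a stalk that projects from the core of the enzyme. The 7 genes have no common textbook function. LPAR6 is a G protein-coupled receptor for lysophosphatidic acid (LPA), and GALR2 is a receptor for the neuropeptide galanin. FOXJ1 is the forkhead transcription factor that switches on motile cilia genes. PIPOX is the peroxisomal oxidase of sarcosine and pipecolic acid, and COLGALT2 adds galactose to hydroxylysine in collagen. MCPH1-AS1 is a long non-coding RNA transcribed antisense to the microcephaly gene MCPH1.

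The RefSeq promoter table (GRCh38.p14), which gives 250 bases before to 50 bases after a gene's start, holds 4 of the 7 genes. Their sequences are shown because these genes were high in the same 3 libraries, and they run 5′ to 3′ on the strand of the gene with each CpG dinucleotide in capitals. LPAR6 is at chr13:48413064-48413363 on the minus strand, PIPOX at chr17:29042891-29043190 on the plus strand, GALR2 at chr17:76074531-76074830 on the plus strand and FAM222A at chr12:109713575-109713874 on the plus strand.
LPAR6: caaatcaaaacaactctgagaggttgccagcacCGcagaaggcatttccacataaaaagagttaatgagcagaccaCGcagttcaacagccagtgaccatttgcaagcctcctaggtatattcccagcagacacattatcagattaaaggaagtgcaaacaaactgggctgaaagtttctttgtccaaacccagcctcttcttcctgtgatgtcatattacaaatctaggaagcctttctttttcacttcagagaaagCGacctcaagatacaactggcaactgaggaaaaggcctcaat
PIPOX: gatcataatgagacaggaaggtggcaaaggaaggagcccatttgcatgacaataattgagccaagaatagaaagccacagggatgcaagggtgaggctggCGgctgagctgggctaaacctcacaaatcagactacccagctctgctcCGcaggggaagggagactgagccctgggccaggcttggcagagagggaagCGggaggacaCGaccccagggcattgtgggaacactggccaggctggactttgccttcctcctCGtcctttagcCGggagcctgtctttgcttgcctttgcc
GALR2: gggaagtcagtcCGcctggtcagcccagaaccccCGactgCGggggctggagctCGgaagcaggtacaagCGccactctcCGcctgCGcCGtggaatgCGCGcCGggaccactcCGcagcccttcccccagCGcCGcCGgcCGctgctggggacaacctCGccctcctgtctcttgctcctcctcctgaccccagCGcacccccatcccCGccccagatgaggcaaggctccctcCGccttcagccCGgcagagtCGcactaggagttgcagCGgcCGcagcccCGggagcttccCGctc
FAM222A: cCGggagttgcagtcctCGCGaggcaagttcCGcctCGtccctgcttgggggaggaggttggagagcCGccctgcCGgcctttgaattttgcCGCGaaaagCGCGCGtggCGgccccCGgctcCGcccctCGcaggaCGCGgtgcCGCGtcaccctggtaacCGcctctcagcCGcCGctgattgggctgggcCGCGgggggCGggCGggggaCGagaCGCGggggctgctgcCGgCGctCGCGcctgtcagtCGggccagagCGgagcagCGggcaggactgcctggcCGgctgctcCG

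The 4 promoters differ in base composition. LPAR6 has 3 CpG dinucleotides and a GC content of 43.3%, and PIPOX has 6 and 57.3%. GALR2 has 26 CpG dinucleotides and a GC content of 71.7%, and FAM222A has 39 and 74.7%. Over all 35116 promoters of the table the median is 14 CpG dinucleotides, with quartiles of 4 and 28, so LPAR6 lies under the lower quartile, FAM222A over the upper one, and PIPOX and GALR2 between them. In all, 4 motifs were searched on both strands. The GC box GGGCGG, held by 45.0% of all promoters, was found 4 times in FAM222A and 1 time in GALR2, and the CCAAT box CCAAT, held by 34.6%, was found 1 time in FAM222A. The TATA box TATAAA, held by 11.5% of promoters, and the cyclic AMP response element TGACGTCA, held by 1.85%, were in none of the 4 windows. None of the 4 motifs was present in all 4 promoters.

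The deposited values are log2 CPM (read counts scaled to a size per library) with 0.5 reads added, and whole reads were recovered from them. That size does not follow the reads on the listed genes exactly. Libraries 15 and 6, with 13863101 and 13893584 such reads, had a count of 0 at -4.72 and -4.88. The libraries held 7569592 to 21149597 reads on the listed genes, and libraries 16, 44 and 19 held 13039270, 8849177 and 12451325. By library, a count of 0 reads stood at -5.30 to -3.88 on the log2 scale, and 3 reads, up to which a true level may lie behind such a 0 by counting error alone, stood at -2.50 to -1.07. Reads of the 25 listed genes of the mitochondrial genome made up 7.35 to 8.42% of the reads in the 3 libraries and 3.25 to 7.44% in the other 42. The top 100 genes took 19.7 to 20.4% and 16.2 to 20.1% of the reads, and 15657 to 15678 and 15455 to 15669 genes had a read. The part of these shares in the results was not tested. In such bulk RNA, more cells that express a gene and more RNA per cell cannot be told apart.

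Of the receptors, LPAR6 (ENSG00000139679) had the largest gap between the 3 libraries and the other 42 of all 15698 genes. It lies on chromosome 13 at 48963703 to 49018840 (GRCh37, minus strand). It had 111, 53 and 161 reads in libraries 16, 44 and 19, which are log2 values of 3.04, 2.49 and 3.63. In the other 42 libraries it had 0 to 4 reads with a median of 0, and 41 of the 42 had 3 reads or fewer. The groups did not overlap, and the lowest of the 3 libraries lay 3.72 on the log2 scale, or 13.2-fold, above the highest of the 42, library 30. With reads summed over each group and divided by the groups' total reads, the ratio was 155 (95% interval 107 to 232, exact and for counting error only). The rule chose the genes by these same reads. For each of the 7 genes the ratio and its interval are therefore high by that choice and are no test. The interval also leaves out the spread among libraries. The 3 libraries spanned 1.14 on the log2 scale, the widest spread of the 7 genes, with library 19 highest and library 44 lowest.

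GALR2 (ENSG00000182687), on chromosome 17 at 74070862 to 74073618 (plus strand), had 170, 158 and 203 reads in libraries 16, 44 and 19 and log2 values of 3.65, 4.06 and 3.97. The other 42 libraries held 0 to 19 reads with a median of 4. The gap was 2.90 on the log2 scale (7.49-fold) and the ratio of summed reads 31.5 (27.0 to 36.7). GALR2 was not silent elsewhere. In set 14 (libraries 41, 43 and 10) it had 13 to 19 reads and log2 values of 0.36 to 0.75, the next highest of the 15 sets, and in set 6 it had 9 to 12 reads. In set 13, the 3 libraries lowest in SAP130, it had 0 to 2 reads.

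FOXJ1 (ENSG00000129654), the ciliary transcription factor, lies on chromosome 17 at 74132414 to 74137326 (minus strand). Libraries 16, 44 and 19 held 56, 33 and 66 FOXJ1 reads, with log2 values of 2.06, 1.82 and 2.35. The other 42 libraries held 0 to 5 reads with a median of 0.5, and 21 of them held none. The gap was 3.22 (9.34-fold) and the ratio of summed reads 60.4 (42.2 to 88.6). No other set of 3 libraries stood out, since the next highest, set 5, had 1 to 4 reads.

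Of the enzymes, PIPOX (ENSG00000179761) spans chromosome 17 at 27277531 to 27384234 (plus strand) in the annotation used here. It had 48, 27 and 41 reads in libraries 16, 44 and 19, with log2 values of 1.84, 1.53 and 1.67. The other 42 libraries held 0 to 4 reads with a median of 0, and 23 of them held none. The gap was 3.11 (8.63-fold) and the ratio of summed reads 55.5 (37.04 to 85.3). The next highest was set 15, the 3 libraries lowest in TOX4, at 2 to 4 reads.

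COLGALT2 (ENSG00000198756), on chromosome 1 at 183898988 to 184006863 (minus strand), had the fewest reads of the 7 genes in the 3 libraries. Libraries 16, 44 and 19 held 40, 23 and 29, with log2 values of 1.58, 1.31 and 1.18, and the other 42 held 0 to 4 with a median of 1. The gap was 2.90 (7.45-fold) and the ratio of summed reads 31.7 (21.8 to 46.7). Set 5, the 3 libraries lowest in EIF3L, was next at 3 to 4 reads.

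FAM222A (ENSG00000139438), which encodes the protein aggregatin, had the most reads of the 7 genes in the other 42 libraries, with at least 30 in each. It lies on chromosome 12 at 110151630 to 110208300 (plus strand). It had 1036, 665 and 995 reads in libraries 16, 44 and 19, with log2 values of 6.26, 6.13 and 6.26, which span only 0.13. The other 42 libraries held up to 174 FAM222A reads with a median of 65.5 and log2 values of 1.47 to 3.49. The gap was 2.64 (6.24-fold), the smallest of the 7 genes, and the ratio of summed reads was 12.9 (12.3 to 13.6).

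FAM222A also varied among the other 14 sets, many of which overlapped with another set. Set 3, the 3 libraries lowest in CDK10, had log2 values of 3.13 to 3.49, and set 2, the 3 lowest in CCNK, had 3.06 to 3.14. Within set 7 (libraries 37, 17 and 9) the values spread from 2.10 to 2.89. At the low end, set 11, the 3 libraries lowest in PSMD13, had 1.47 to 1.98 and set 6, the 3 lowest in GLI1, had 1.73 to 2.05. Sets 2 and 3 therefore did not overlap with sets 6 and 11, whereas sets 3 and 2 overlapped with each other, as did sets 6 and 11.

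MCPH1-AS1 (ENSG00000249898), on chromosome 8 at 6474831 to 6565745 (minus strand), is the only long non-coding RNA of the 7 genes. It had 125, 101 and 140 reads in libraries 16, 44 and 19, with log2 values of 3.21, 3.42 and 3.43. The other 42 libraries held 2 to 27 reads with a median of 7. The gap was 2.73 (6.65-fold) and the ratio of summed reads 15.6 (13.4 to 18.1). The next highest set, set 2, had 10 to 27 reads, and set 13 was lowest at 3 to 5 reads.

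**Figure D1:**
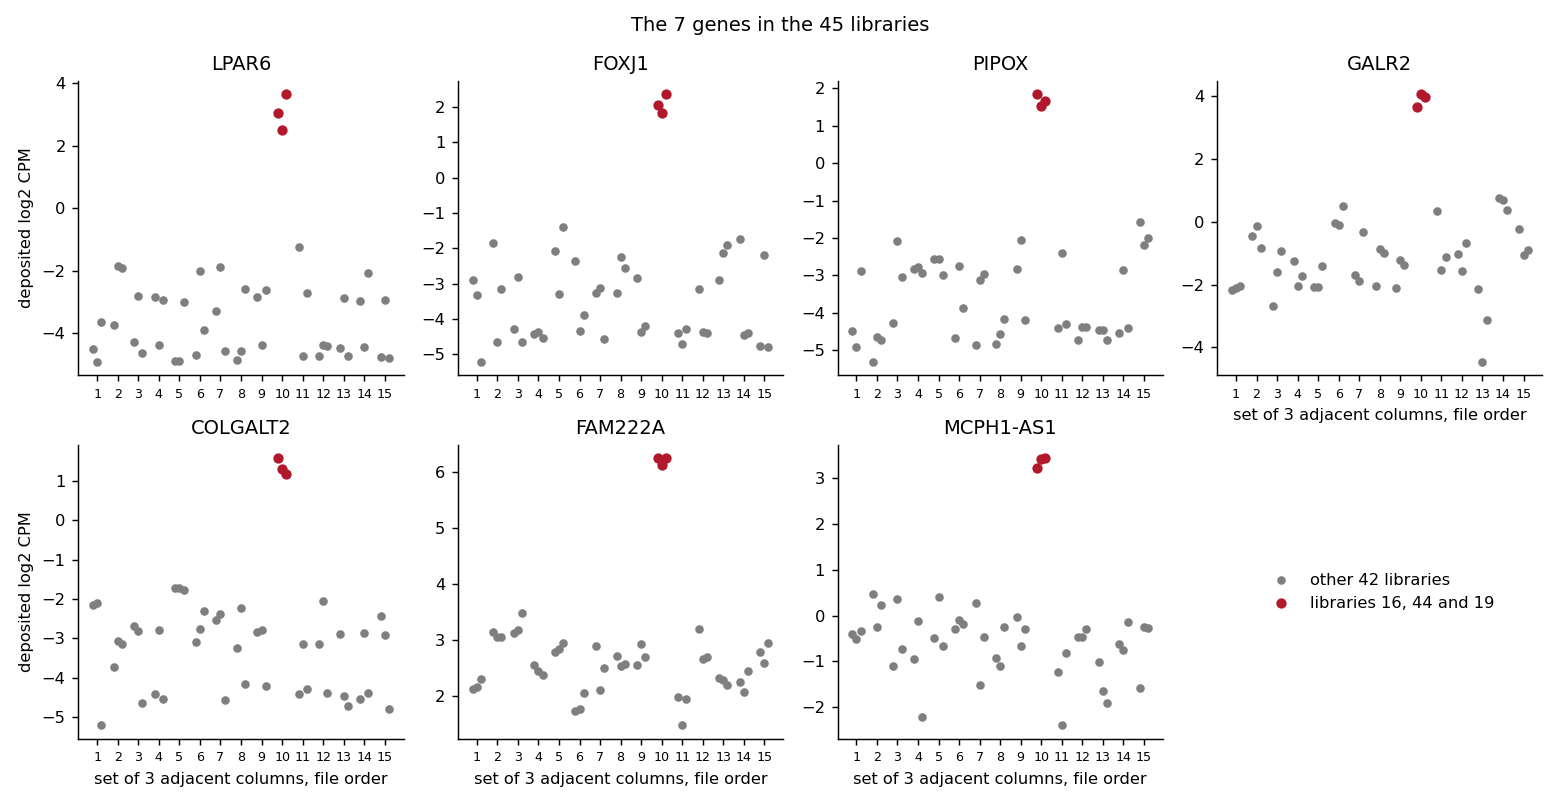
Each panel plots the deposited log2 CPM of 1 gene (y axis) in the 45 libraries, placed by set of 3 adjacent columns in file order (x axis), with libraries 16, 44 and 19 (set 10) in red and the other 42 in grey. In every panel the 3 red points lie at least 2 log2 units above all grey points, and FAM222A alone has all grey points at 1.47 or more.

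On the RPKM scale (reads per exon length and library total), the order of levels in the 3 libraries was as follows. FAM222A was highest at 18.3 to 19.4 RPKM, and GALR2 followed at 9.50 or more with a median of 11.9. LPAR6 at 1.38 to 2.97 RPKM and FOXJ1 at 1.44 to 2.05 overlapped. MCPH1-AS1 at 0.833 to 0.991 and PIPOX at 0.800 to 0.965 RPKM also overlapped, and COLGALT2 was lowest at 0.298 to 0.393. In the other 42 libraries only FAM222A and GALR2 reached 1 RPKM in any library, at up to 2.70 and 1.20 RPKM. The lengths are those of GENCODE 44 and not of the annotation used for counting.

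Among the libraries listed as siPOLR2D or as mock, the reads of LPAR6 and FAM222A differed. Of the 3 libraries listed as siPOLR2D, LPAR6 had 53 reads in library 44 but 2 in library 10 and 1 in library 26. Of the 3 listed as mock, it had 111 reads in library 16 but 0 in library 1 and 1 in library 33. FAM222A had 57 and 59 reads in libraries 10 and 26, and 48 and 62 in libraries 1 and 33, against 665 and 1036 in libraries 44 and 16. Both genes were chosen for values in libraries 44 and 16 far above those in libraries 10, 26, 1 and 33. Their reads are therefore no check on the listed names.

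Genes at low levels were more often above in these 3 libraries than below. All 3 libraries lay above all other 42, with no margin, for 1506 genes (9.59%) and below them for 1357 genes (8.64%). Of the 1663 genes with a median of 10 reads or fewer in the 42 libraries, 20.9% lay above and 0.0601% below, and of the 14035 genes over 10 reads 8.25% lay above and 9.66% below. Of the 7 genes, 6 genes have a median of 10 reads or fewer, as do 28 of the 32 genes past the margin, and a gene near 0 reads has little room to lie below. Over all genes the median difference between the 3 libraries and the 42 was -0.05 on the log2 scale. Sets other than set 10 had 0 to 4 genes past the margin of 2, the 4 being in set 11.

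At the edge of the margin, PGF, a growth factor of the VEGF family, had a gap of 2.07 and is the last gene inside it. TMEM229B had a gap of 1.98 and is the first outside it. Both had more reads in the other 42 libraries than most of the 7 genes, with medians of 102.5 and 9.

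**Figure D2:**
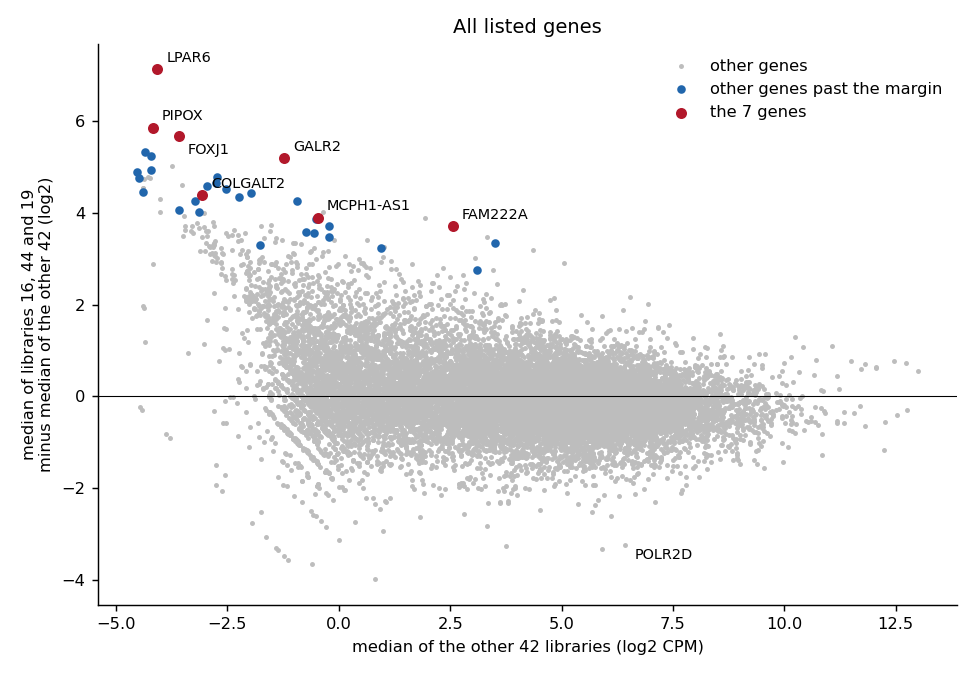
Each point is 1 of the 15698 listed genes, with its median log2 CPM in the other 42 libraries on the x axis and the median of libraries 16, 44 and 19 minus the median of the other 42 (log2) on the y axis. The 7 genes (red) have differences of 3.70 for FAM222A to 7.11 for LPAR6, the other 25 genes past the margin are in blue, and POLR2D lies at -3.23.

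The next question was whether the genes around the 7 genes were also higher in these libraries. Within 200 kb of the 7 genes lie 39 other listed genes, of which 5 were above in all 3 libraries, among them ITM2B, RCBTB2, UBE3B and ANGPT2, and 2 below (PCNPP5 and TSEN15), against 9.59% and 8.64% of all genes. For the other 32 the groups overlapped. The differences of medians of the 39 ranged from -1.80 to 2.10 with a median of 0.03. Those of the 7 genes, 3.70 to 7.11, are high by the rule that chose them and are no measure for the neighbours.

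LPAR6 lies inside the tumour suppressor gene RB1 (chromosome 13, 48877880 to 49173572), on the opposite strand and with no exonic base in common with another listed gene. RB1 had 2062, 1280 and 1921 reads in libraries 16, 44 and 19 against 913 to 2692 in the other 42, a difference of medians of 0.25 on the log2 scale, and the groups overlapped. The nearest listed genes on each side of LPAR6 also lie within the span that this annotation gives RB1. The pseudogene PCNPP5, with 91, 54 and 62 reads against 81 to 223, was below with a difference of -0.97. On the other side, 44.3 kb from LPAR6, RCBTB2 had 102, 58 and 89 reads against 0 to 74 (median 21.5) in the other 42. It was above by a gap of 0.71, with a difference of medians of 1.80. ITM2B, 119 kb away, was above by a gap of 0.35.

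FOXJ1 and GALR2 are 58.8 kb apart on chromosome 17, on opposite strands. The listed gene between them is EXOC7, a subunit of the exocyst, and its groups overlapped with 2518, 1715 and 2405 reads against 826 to 2769 and a difference of medians of 0.53. RNF157, 1.22 kb on the other side of FOXJ1, had 6, 4 and 7 reads against 0 to 19, and these overlapped too. SRP68, 2.26 kb from GALR2 and part of the signal recognition particle, had a difference of -0.30 with overlapping groups.

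PIPOX overlaps the 5′ part of PHF12 on the opposite strand, the 2 genes lying head to head, and 4.46% of its exonic bases are shared with PHF12. PHF12 had 512, 369 and 563 reads against 188 to 951 in the other 42, a difference of -0.12. The nearest genes beside it, DHRS13 and MYO18A, had differences of -0.18 and -0.82, and all 3 overlapped between the groups. The start of PIPOX that RefSeq gives lies inside the longer span of GENCODE 44, so the bases shared with PHF12 may not have been counted for PIPOX.

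COLGALT2 had 2 listed neighbours. RGL1, 1.32 kb away, had 45, 30 and 59 reads against 8 to 80 in the other 42, a difference of 0.65 with overlapping groups. TSEN15, a subunit of the tRNA splicing endonuclease 13.9 kb away on the other side, was below, with 252, 149 and 205 reads against 244 to 917 and a difference of -1.34. Neither of the genes on the 2 sides of COLGALT2 thus lay above all other 42 in all 3 libraries.

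FAM222A is overlapped on the opposite strand by FAM222A-AS1, with no exonic base in common. FAM222A-AS1 had 32, 26 and 40 reads in libraries 16, 44 and 19 against 10 to 122 (median 40.5) in the other 42, a difference of -0.32. FAM222A itself, chosen for its high values, differed by 3.70. The nearest genes beside it, MVK and GLTP, had differences of -0.21 and 0.75 and overlapped. UBE3B, a ubiquitin ligase 177 kb away, was above by a gap of 0.15.

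MCPH1-AS1 overlaps MCPH1 on the opposite strand, and 3.57% of its exonic bases are shared with MCPH1. MCPH1 had 488, 380 and 538 reads against 251 to 1130 in the other 42, a difference of 0.24 with overlapping groups. AGPAT5, 0.418 kb away, had a difference of 0.05. ANGPT2, an angiopoietin gene inside MCPH1 and 53.9 kb from MCPH1-AS1, had 77, 70 and 92 reads against 6 to 79 (median 19). It was above by a gap of only 0.05 but had a difference of 2.10, the highest of the 39 neighbours. The groups of ANGPT2 overlapped after quantile normalisation. The kit used does not mark strand, so reads on shared bases of PIPOX and PHF12 or of MCPH1-AS1 and MCPH1 cannot be told apart. Nor can reads of unspliced RNA from a gene on the other strand, such as RB1 across LPAR6, and their part was not tested.

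**Figure D3:**
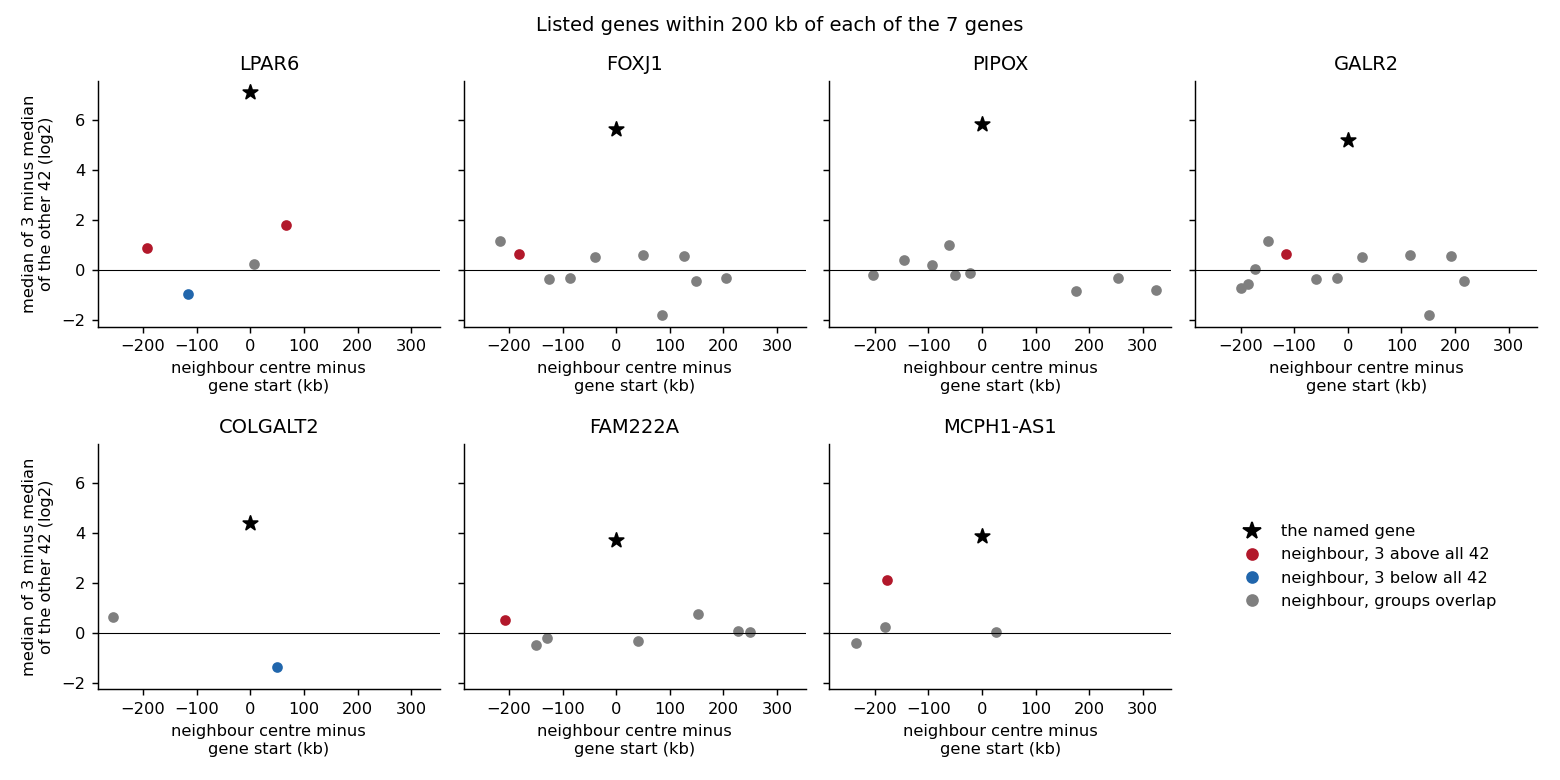
Each panel plots, for 1 of the 7 genes (star), the listed genes within 200 kb by the distance of their centre from the gene's start (x axis, kb) and by the median of libraries 16, 44 and 19 minus the median of the other 42 (y axis, log2). Neighbours above all 42 libraries are red, those below blue and those that overlap grey. No neighbour exceeds 2.10, and the stars, chosen by the rule for high values, lie at 3.70 or more.

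The other subunits of RNA polymerase II did not share the low values of POLR2D. Of 14 subunit genes 12 were in the file. Among these, 2 were above, POLR2A and POLR2L, and POLR2D was below, against 9.59% and 8.64% of all genes. POLR2D was low by the choice of these libraries. POLR2A, the largest subunit, had 14026, 10556 and 13326 reads against 3278 to 15902 and was above by a gap of 0.29 in log2 CPM. POLR2L had 4050, 2984 and 3919 reads against 867 to 2474, a gap of 0.58 and a difference of medians of 1.25. POLR2G, whose product pairs with that of POLR2D, had 881, 599 and 774 reads against 399 to 1362, and its groups overlapped with a difference of -0.25. The differences of POLR2B, POLR2C, POLR2E, POLR2F, POLR2H, POLR2I, POLR2J and POLR2K lay between -0.28 for POLR2K and 0.56 for POLR2F, with overlapping groups. Of the 11 listed siRNA targets, TOX4 was above (gap 0.23) and only POLR2D was below, against the same shares of all genes.

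Genes related to each of the 7 by pathway were read beside them. Of 30 motile cilia genes 13 were in the file, many of them targets of FOXJ1 or regulators that act with it. The rest of the 30 have no values here. Among the 13, 2 were above and none below, where 9.59% of all genes were above and 8.64% below. These were CCNO, a cyclin of multiciliated cells, with 207, 166 and 224 reads against 47 to 194, and ZMYND10, a dynein arm assembly factor, with 12, 15 and 15 reads against 0 to 13. The gap of ZMYND10 was 0.02 and its groups overlapped with plain library totals and after quantile normalisation. The dynein genes DNAH5 and DNAH11 had differences of -1.27 and -0.75 with overlapping groups, and MCIDAS, which acts upstream of FOXJ1, had one of -0.83. The median difference over the 13 genes was 0.15, against -0.05 over all genes, and FOXJ1 itself, chosen for its high values, differed by 5.66.

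Of 11 other LPA receptors and enzymes of LPA metabolism 8 were in the file. None was above and 1 was below, against 9.59% and 8.64% of all genes. The gene below was LPAR3, with 103, 95 and 137 reads against 184 to 713 and a difference of -1.58. The receptors LPAR1, LPAR2 and LPAR5 overlapped, with differences of -0.58, -0.65 and 0.69. LIPH, the lipase that makes the LPA on which LPAR6 acts, had 207, 167 and 205 reads against 61 to 768 and overlapped. LPAR6 belongs by sequence to the P2Y receptors. Of 10 others of that family 3 were in the file, and none was above or below, against the same shares of all genes. P2RY11 and P2RY2 had differences of 0.09 and -0.34, and P2RY1, with 33, 29 and 26 reads against 4 to 28 in the other 42, had one of 1.20.

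Of 7 genes of the galanin system besides GALR2, 3 were in the file, and none was above or below, against 9.59% and 8.64% of all genes. GAL, which encodes galanin, had 1411, 1014 and 1493 reads against 413 to 2183 in the other 42, a difference of 0.35. KISS1R, a related receptor, had a difference of -0.70, and SPX, which encodes the related peptide spexin, had one of 1.39 with 4, 5 and 9 reads against 0 to 20.

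Of 18 genes of peroxisomal oxidation and of lysine or sarcosine breakdown 13 were in the file. Among these, 3 were above and none below, against 9.59% and 8.64% of all genes. Among those above were PHYH and EHHADH, enzymes of peroxisomal fatty acid oxidation. PHYH had 440, 248 and 418 reads against 111 to 334 and EHHADH had 428, 315 and 356 against 86 to 329, with differences of 0.96 and 0.95. SARDH, which like PIPOX oxidises sarcosine, had 15, 8 and 4 reads against 0 to 26 and overlapped. The median difference over the 13 was 0.42.

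The 16 genes of collagen hydroxylation and glycosylation were all listed, and 5 were above and 2 below, against 9.59% and 8.64% of all genes. Those above were SERPINH1, a collagen chaperone, P3H3, PLOD2 and PLOD3, members of the prolyl and lysyl hydroxylase families, and CERCAM, a relative of COLGALT2. SERPINH1 had 4935, 3536 and 4784 reads against 776 to 3106, a difference of 1.64, and P3H3 had 828, 643 and 825 against 156 to 579, a difference of 1.24. The gaps of PLOD2, PLOD3 and CERCAM were 0.12, 0.10 and 0.01. P3H4 and CRTAP, partners of prolyl hydroxylases, were below by gaps of 0.03 and 0.09. The groups of P3H4 overlapped under all 3 other scalings and those of CRTAP under median centring and quantile normalisation. COLGALT1, the closest relative of COLGALT2, had 3076, 2311 and 3046 reads against 1343 to 6563, a difference of -0.05. The median difference over the 16 was 0.54.

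FAM222B, the only relative of FAM222A, had 617, 473 and 716 reads against 193 to 1007, a difference of 0.41 with overlapping groups. Of 8 primary microcephaly genes, MCPH1 among them, none was above and 3 were below (8.64% of all genes were). The 3 were CDK5RAP2, CEP135 and CENPJ, which encode centrosomal proteins. CDK5RAP2 had 334, 229 and 405 reads against 395 to 1705 in the other 42, a difference of -1.74. CEP135 and CENPJ had differences of -1.66 and -1.34, and the median over the 8 was -0.85.

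**Figure D4:**
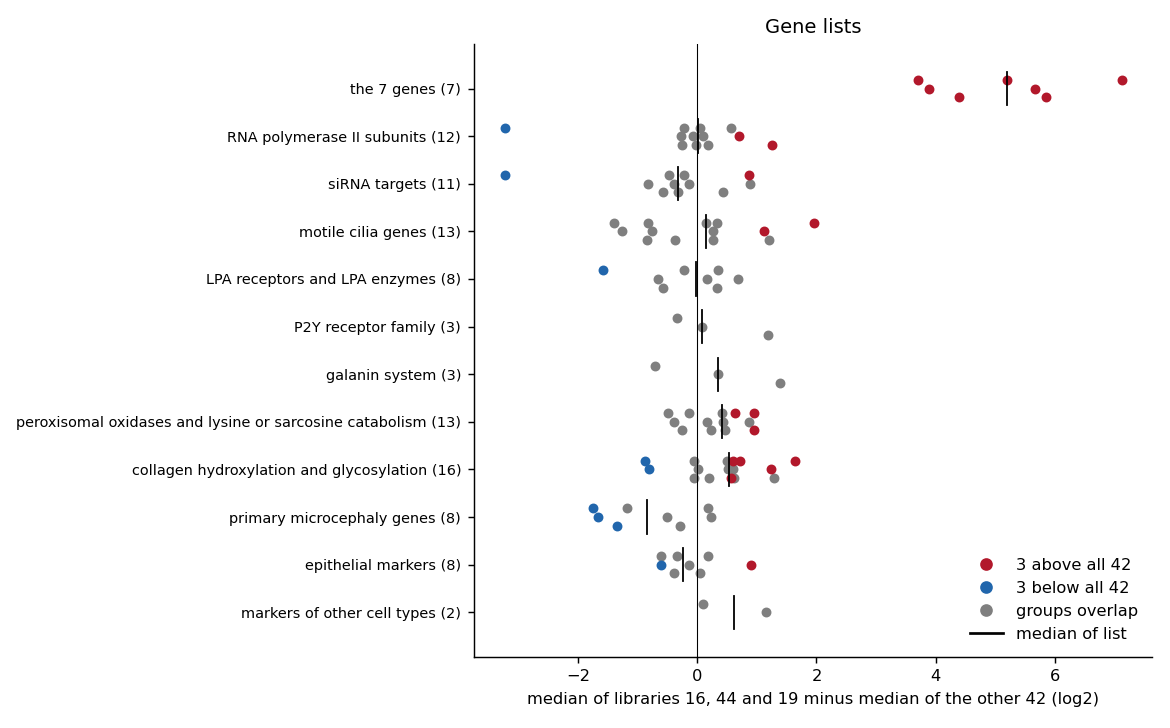
Each point is 1 listed gene, placed by the median of libraries 16, 44 and 19 minus the median of the other 42 (x axis, log2) within its gene list (y axis, number of listed genes in brackets). Genes above all 42 libraries are red, those below blue and those that overlap grey, with a bar at each list's median, and the list medians other than that of the 7 genes lie between -0.85 and 0.62.

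Markers of the epithelium, from which colorectal carcinoma cells derive, were expressed. Of 9 epithelial markers 8 were listed, and KRT8 had 13724, 9323 and 13242 reads in libraries 16, 44 and 19 against 7665 to 29131, and EPCAM 6816, 4551 and 6352 against 2459 to 9496. CDH1 was above (gap 0.43) and KRT19 was below (gap 0.09), against 9.59% and 8.64% of all genes. The groups of KRT19 overlapped after quantile normalisation. Of 9 markers of immune, endothelial and stromal cells 2 were in the file, CD68 and COL1A1. CD68 had 67, 91 and 112 reads against 20 to 647 and COL1A1 had 158, 165 and 171 against 33 to 314, so neither stood outside the other 42 libraries.

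The genes most like each of the 7 over the other 42 libraries were ranked by Pearson's r of log2 values among 14157 genes with a median of at least 10 reads. For FAM222A they were PROSER1 (r = 0.83), RFC3 (0.80) and DSCC1 (0.80). For GALR2 they were CASC8 (0.70), SEC62 (0.70) and LIG4 (0.69), and for MCPH1-AS1 GASK1B (0.65), CHST7 (0.62) and TOR2A (0.60), on medians of 4 and 7 reads. For LPAR6, FOXJ1, PIPOX and COLGALT2, with medians of 0 to 1 read, the highest r was 0.47, 0.52, 0.61 and 0.61, for MDM2, KITLG, S100PBP and TM7SF2, and nothing is read from values so sparse. The libraries of a set share their place in the file, and libraries differ in depth, so the 42 points are not independent.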

How the data were processed

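RNA was prepared with the TruSeq RNA v2 kit. Per the study's methods, the authors mapped single-end reads to GRCh37, counted reads on the genes of Ensembl 67 and normalised the counts. The submitters' processing notes name CASAVA 1.8.2, TopHat 1.4.1, HTSeq and limma. The deposited values are log2 CPM per library. Whole reads were recovered on the assumption that 0.5 reads had been added and that the smallest value in a library stands for 0 reads, and 100% of values lay within 0.001 of a whole read.

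The members and gene lists were chosen with earlier results of these data known. Because the 3 libraries were chosen by a readout, no test was made. A gene is above or below when all 3 libraries lie above or below all other 42, and its gap is the distance between the nearest libraries of the 2 groups. The difference is that between the 2 medians. Intervals are exact (Clopper-Pearson), 95%, and reads without molecular identifiers make them cover counting error only. Genes named are the 7, the polymerase subunits, hosts and nearest genes, list genes above or below (or the 2 highest), the 10 other genes with the largest gap, and the 3 most like each of the 7. A few further list genes and neighbours were named after their values were seen. Some single genes that the rule names are not reported here. Positions and symbols are from GENCODE 44 on GRCh37, which names 14626 of 15698 identifiers (93.2%). Distances to neighbours use these positions. The promoters shown are placed by RefSeq starts, which can lie elsewhere, as for PIPOX. The gap and the recovery of reads were tested on simulated data. Alternatives changed the margin, scaling, filter and libraries. Python 3.11.15, pandas 2.3.3 and scipy 1.17.1 were used.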

Additional observations from a re-analysis of the deposited data

How the results depend on the processing

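The 7 genes met the margin of 2 under each other scaling, where their gaps ranged from 2.60 to 3.90. They also met it with at least 10 reads in each of the 3 libraries and without any 1 of the 3 libraries. The same held against the second highest of the other 42 libraries. Only the scalings could lower a gap, since the remaining settings can only keep or raise it, so those are no check on the margin. Over all these settings the 56 gaps ranged from 2.60 to 4.33. Of all genes, 186 met a margin of 1, 1506 lay above with no margin, and 5 met a margin of 3, among them 3 of the 7 genes (LPAR6, FOXJ1 and PIPOX). Leaving out 1 of the 3 libraries gave 36 to 39 genes past the margin in place of 32, and quantile normalisation gave 23. With the second nearest of the 42 libraries in place of the nearest, 4 neighbours in place of 2 were below, and within 100 kb 3 neighbours in place of 5 were above, because only 22 neighbours lie that near. The lists other than those of the 7 genes and the siRNA targets hold 87 listed genes. Of these, 13 were above and 8 below, against 9.59% and 8.64% of all genes. Under the other settings 13 to 16 were above and 6 to 10 below. Within single lists calls were lost, as given above for ZMYND10, P3H4, CRTAP and KRT19. Most of the 7 genes have 0 to 5 reads in the other 42 libraries, so counting error limits how far below the 3 libraries they can be placed. No paired analysis was possible, because which libraries share an experiment cannot be read from their numbers.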

Other observations

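Past the same margin lay 25 further genes, and in all 32 there were 18 protein-coding genes and 11 long non-coding RNAs. The shares of these kinds over all genes are not given here, so no excess of either is read from the counts. TDRG1, a long non-coding RNA, had 9, 12 and 16 reads in libraries 16, 44 and 19 and 0 reads in each of the other 42, and its gap of 3.36 was the largest outside the 7 genes. Of the 10 such genes with the largest gaps, 3 carry an identifier only, among them ENSG00000232769 with 55, 37 and 66 reads against at most 6 elsewhere and ENSG00000225335 with 58, 40 and 62 against at most 5.

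Among the protein-coding genes, B3GALT4, a galactosyltransferase of gangliosides, had 134, 103 and 124 reads against at most 21 in any other library, and a gap of 2.59. PPP1R3F, a glycogen-targeting subunit of protein phosphatase 1, had 96, 80 and 84 reads against at most 19, and PBLD had 159, 88 and 122 against at most 25. PODNL1 and TMEM132B had gaps of 2.44 and 2.42, and LINC00431 one of 2.34.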
